A study of Mus musculus with 2 samples.

Results

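The protein-coding transcripts of the intestinal microvillus were compared between wild type (WT) and Stat6 knockout (KO) cultures of mouse intestinal stem cells. The 10 genes were chosen by name from 18944 listed genes, with earlier results of these data known. All 10 were found in both libraries. They are the actin bundlers Vil1, Espn and Pls1, the motor Myo1a, the membrane linker Ezr, the intermicrovillar adhesion genes Cdhr2, Cdhr5, Ush1c and Anks4b, and the actin-severing gene Scin. There was 1 library per genotype, so no difference below has a replicate check and no test was possible. The labels give the genotypes as Lgr5GFP-CreERT2 WT and Lgr5GFP-CreERT2 Stat6 KO, both from mice aged 2 months. Lgr5GFP-CreERT2 is an allele that puts a fluorescent protein and an inducible recombinase under the Lgr5 promoter, and both cultures carried it. Per the labels' protocols the medium held EGF, R-spondin 1, N-acetylcysteine and the kinase inhibitor Y27632. Stat6 guide RNAs and CRISPR/Cas were delivered by lentivirus before selection of deficient cells, and the same protocol text stands under both samples. The sources used here do not say whether a control virus was given to the WT culture or whether the KO culture is 1 clone.

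Microvilli are finger-like protrusions of the apical membrane, each held up by a core bundle of parallel actin filaments. Villin, espin and plastin 1 cross-link that bundle, myosin 1a tethers it to the membrane, and ezrin links actin to membrane proteins when it is phosphorylated. The protocadherins CDHR2 and CDHR5 join the tips of neighbouring microvilli, and the scaffolds harmonin (Ush1c) and ANKS4B anchor them to the motor MYO7B. Enterocytes, the absorptive cells of the villus, pack microvilli into the brush border, whereas crypt cells carry fewer and shorter ones. STAT6 is the transcription factor activated by IL-4 and IL-13.

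The stem cell label of the cultures was set beside cell type markers. Lgr5, the receptor that marks intestinal stem cells, was at 1.79 FPKM in the WT culture and 1.88 FPKM in the KO culture. FPKM divides a gene's fragments by its transcript length and by the library total, so levels of different genes can be compared within a library. Each of the 11 listed enterocyte markers was at least 2-fold higher in KO (a difference defined below), and their summed level was 4618 FPKM in the WT culture and 16669 FPKM in the KO culture. None of them was at 0 in either library. Over all genes measured, 2.44% were at least 2-fold higher as deposited and 2.18% lower, and 3.62% and 1.42% with the TMM factor. As deposited, 30.3% of all genes had a log2 ratio above 0 and 69.6% one below 0. The summed level of 7 stem cell markers was 97.1 and 72.2 FPKM, with 1 of 7, Sox9, at least 2-fold lower as deposited (log2 ratio -1.14, and -0.93 with the TMM factor described below). The enterocyte list thus summed to far more than the stem cell list in both libraries. The 2 lists hold different genes, and Fabp1 alone made up 47.1% of the enterocyte sum in WT and 45.5% in KO. Such sums therefore cannot decide on the stem cell label, and the cell types in each culture were not counted. Tuft cells also bear prominent actin-based microvilli, and the 7 of their 8 listed markers that were found summed to 14.5 and 12.8 FPKM. Goblet cell markers summed to 1518 FPKM in the WT culture and 2062 FPKM in the KO culture. Of 6 measured, 5 log2 ratios lay above 0, with Clca1 past 2-fold (1.52), and Spdef lay below (-0.35). Paneth cell markers summed to 968 and 1058 FPKM. Of 5 measured, 4 lay above 0, and Pla2g2a was at least 2-fold lower as deposited (-1.08, and -0.85 with the TMM factor). Enteroendocrine markers summed to 754 and 378 FPKM, with all 6 log2 ratios below 0 and 2 of 6, Tph1 and Gcg, at least 2-fold lower as deposited and with the TMM factor. Proliferation markers summed to 260 and 176 FPKM, of which Pcna made up 68.9% and 66.7%. None of the 5 was past 2-fold. Their log2 ratios ran from -0.92 for Mcm5 to -0.07 for Mki67, which was at 0.14 with the TMM factor. Stromal markers summed to 4.45 and 2.06 FPKM, and of these 6 only 1, Dcn, passed the minimum level. Leukocyte markers summed to 25.7 and 10.6 FPKM and endothelial markers to 12.6 and 5.15 FPKM. Of 5 measured leukocyte markers 2, Cd68 and Coro1a, were at least 2-fold lower and 1 lay above 0. Of 5 endothelial markers 1, Cldn5, was at least 2-fold lower and 0 lay above 0. In bulk RNA, fewer cells of a type and less RNA per cell cannot be told apart. The part of these marker shifts in the values below was not tested.

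The difference between libraries was expressed as a log2 ratio, log2((KO FPKM + 1)/(WT FPKM + 1)), and a value of at least 1 in size is called 2-fold. All 10 genes passed the minimum of 1 FPKM in at least 1 library. Of the 10 genes, 1 was at least 2-fold higher in KO, Scin, where 2.44% of the 12079 genes measured were. None of the 10 was at least 2-fold lower, against 2.18% of all genes. The log2 ratio was above 0 for 9 of the 10, where 30.3% of all genes lay above 0. The median log2 ratio was 0.70 over the 10 genes and -0.18 over all genes. The 10 levels summed to 1707 FPKM in the WT culture and 2278 FPKM in the KO culture, which is 1.33 times as much. Without Scin the median of the other 9 was 0.57, and their log2 ratios ran from -0.42 for Ezr to 0.90 for Myo1a.

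**Figure D1:**
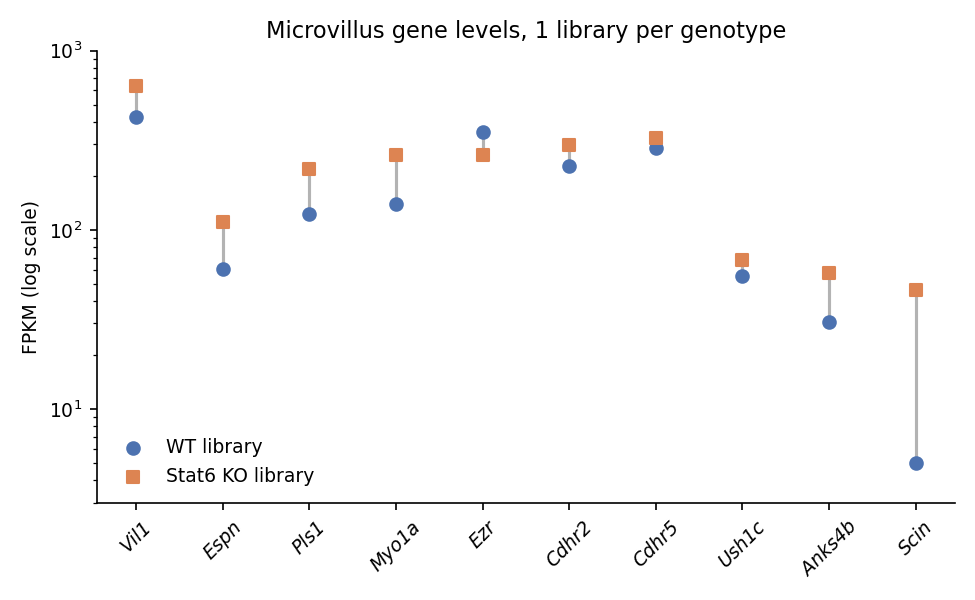
Levels of the 10 microvillus genes in FPKM on a log axis. Circles are the WT library, squares the Stat6 KO library, and grey lines join both values of a gene. Vil1 is highest in both (425 and 632 FPKM), Scin is lowest in both (5.0 and 46.3 FPKM), and Ezr is the 1 gene whose square lies below its circle.

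The order of the levels was similar in both libraries. In WT it ran Vil1, Ezr, Cdhr5, Cdhr2, Myo1a, Pls1, Espn, Ush1c, Anks4b and Scin. In KO Ezr moved from position 2 to position 4, behind Cdhr5 and Cdhr2, and its level of 262.7 FPKM stood next to the 262.0 FPKM of Myo1a. With 1 library per genotype no spread is known, so it cannot be said which neighbours in this order differ.

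The call depended on how the libraries were scaled. A factor from the trimmed mean of log ratios (TMM), which sets the bulk of genes equal between libraries, moved the median of all genes from -0.18 to 0.02. On that scale 5 of the 10 passed 2-fold on the higher side in KO, where 3.62% of all genes were, and none was lower, against 1.42%. Beside Scin (3.21) these were Myo1a (1.13), Anks4b (1.10), Espn (1.09) and Pls1 (1.05). With the median of all genes set to 0 the count was 4 of 10, where 3.39% of all genes were called, none was lower, against 1.32%, and Pls1 lay just under the threshold at 0.9988. Among all genes past 2-fold, 52.9% were higher in KO as deposited and 71.9% with the TMM factor. At a threshold of 1.5-fold, as deposited, 5 of the 10 were higher in KO, where 5.7% of all genes were, and none was lower, against 11.4%. Ezr was lower in KO under each scaling, at -0.42 as deposited and -0.19 with the TMM factor, and the other 9 were higher under each.

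**Figure D2:**
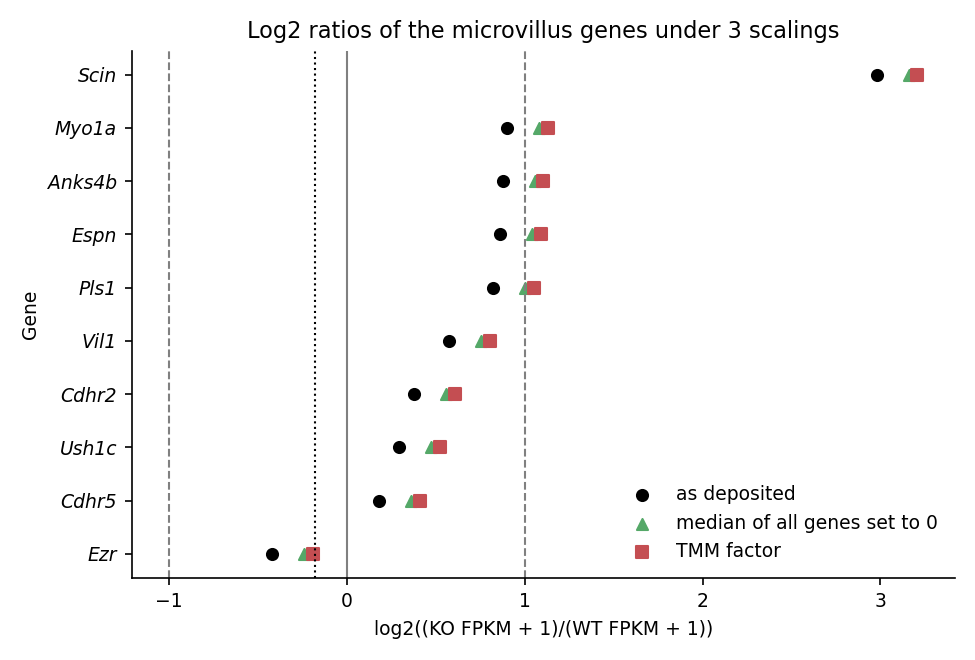
Log2 ratios of the 10 genes under 3 scalings, with 1 point per gene and scaling. Dashed lines mark 2-fold in each direction and the dotted line the median of all genes as deposited (-0.18). Myo1a, Anks4b and Espn lie left of the 2-fold line as deposited and right of it under both other scalings, and Pls1 crosses it with the TMM factor.

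The promoters of 4 members are printed here. Each is the 250 bases before the RefSeq gene start in GRCm38.p6, a later build than that of the deposited values, written 5′ to 3′ along the gene. Scin is shown because it is the 1 gene past 2-fold as deposited, and Ezr because it is the 1 gene lower in KO. Cdhr5 and Cdhr2, each with a single start site, are shown for their motif matches, which are in capitals.
Scin promoter, chr12:40134229-40134478, minus strand: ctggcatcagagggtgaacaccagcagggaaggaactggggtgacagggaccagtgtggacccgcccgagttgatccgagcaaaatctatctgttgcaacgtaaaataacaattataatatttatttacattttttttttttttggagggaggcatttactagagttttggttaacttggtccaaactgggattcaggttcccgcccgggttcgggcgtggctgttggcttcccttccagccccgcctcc
Ezr promoter, chr17:6782781-6783030, minus strand: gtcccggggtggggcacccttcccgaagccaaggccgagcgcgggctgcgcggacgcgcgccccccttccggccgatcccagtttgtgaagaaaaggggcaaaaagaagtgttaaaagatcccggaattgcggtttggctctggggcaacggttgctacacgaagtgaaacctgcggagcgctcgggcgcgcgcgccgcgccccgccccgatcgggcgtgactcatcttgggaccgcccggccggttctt
Cdhr5 promoter, chr7:141276787-141277036, minus strand: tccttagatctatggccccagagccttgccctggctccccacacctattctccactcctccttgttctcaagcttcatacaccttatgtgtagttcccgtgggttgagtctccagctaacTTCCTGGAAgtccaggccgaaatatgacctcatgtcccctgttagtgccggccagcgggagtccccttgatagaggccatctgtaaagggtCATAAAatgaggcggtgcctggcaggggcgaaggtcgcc
Cdhr2 promoter, chr13:54701213-54701462, plus strand: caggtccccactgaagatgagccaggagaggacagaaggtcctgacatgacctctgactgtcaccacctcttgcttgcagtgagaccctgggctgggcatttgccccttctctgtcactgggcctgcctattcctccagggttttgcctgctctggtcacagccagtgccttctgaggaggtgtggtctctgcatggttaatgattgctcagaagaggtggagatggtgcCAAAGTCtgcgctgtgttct

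All 10 genes matched the promoter table, Espn with 3 start sites, which gave 12 windows. Both strands were searched for 6 motifs. The STAT6 spacing TTCNNNNGAA was in 0 of the 12 windows, where 5.85% of all 32851 promoter windows of this length hold it. The spacing preferred by other STAT proteins, TTCNNNGAA, was in 7.02% of all windows and here in that of Cdhr5 alone, as TTCCTGGAA, whose first letter lies 130 bases before the start. The caudal-type (CDX) motif TTTATG, in 10.8% of all windows, had a match in Cdhr5, 39 bases before the start, and in 1 of the 3 Espn windows. The HNF4 motif CAAAGTC, in 3.84% of all windows, had a match in Cdhr2, 20 bases before the start. The GATA motif AGATAA and the TATA motif TATAAA, in 9.99% and 12.4% of all windows, were in none of the 12. No match overlapped another. These are letter matches and not measured binding sites. The windows of Ezr and Vil1 were the richest in G and C, at 67.2% and 62.8%, and that of Scin the poorest, at 49.2%, where the median of all windows was 52.4%.

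Of the actin bundlers, Vil1 (Entrez gene 22349), which encodes villin, a bundler that severs filaments when calcium is high, was at 425 FPKM in the WT culture and 632 FPKM in the KO culture. That is 1.49-fold, a log2 ratio of 0.57. Its level ranked 177 of 18944 genes in WT and 118 in KO. Espn (Entrez gene 56226), which encodes the calcium-insensitive bundler espin, was at 60.2 and 110 FPKM, a log2 ratio of 0.86. Pls1 (Entrez gene 102502), which encodes plastin 1 or fimbrin of the intestine, was at 123 and 217 FPKM, a log2 ratio of 0.82. All 3 bundlers were therefore higher in the KO library, where 30.3% of all genes had a log2 ratio above 0. None reached 2-fold as deposited, and Espn (1.09) and Pls1 (1.05) did with the TMM factor. Of all measured genes, 5.94% had a higher log2 ratio than Vil1, 3.42% than Pls1 and 3.06% than Espn. Villin held 69.9% of the summed bundler level in WT and 65.9% in KO, plastin 1 20.2% and 22.7%, and espin 9.90% and 11.5%. These shares are taken within a library and do not move with its scaling.

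Within the plastin family the intestinal gene took a larger share in KO. Pls1 made up 81.2% of the family total in WT and 89.6% in KO. Lcp1, the plastin of white blood cells, was at 17.2 and 16.7 FPKM, and the widely expressed Pls3 at 11.3 and 8.55 FPKM. The other espin gene, Espnl, was at 0.07 FPKM in the WT culture and 0.02 FPKM in the KO culture, so nearly all espin-family signal came from Espn.

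The motor and the linker at the membrane went opposite ways. Myo1a (Entrez gene 432516) was at 140 FPKM in the WT culture and 262 FPKM in the KO culture, a log2 ratio of 0.90, the highest of the 10 genes after Scin. Of all measured genes, 2.85% had a higher one. Ezr (Entrez gene 22350) was at 353 FPKM in the WT culture and 263 FPKM in the KO culture, 1.34-fold lower, a log2 ratio of -0.42. That value is not extreme, since 22.7% of all genes had a lower one and 69.6% lay below 0. Per Ezr transcript, there was 0.397 of Myo1a in WT and 0.997 in KO, and 1.20 of Vil1 in WT and 2.40 in KO, on the FPKM scale.

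Among the 8 class I myosins, 5 were measured and none was past 2-fold. Myo1a held 48.6% of the family total in WT and 63.0% in KO. Myo1d, which is also found in the brush border, was at 48.7 and 72.5 FPKM (log2 ratio 0.56). Myo1c (-0.25) and Myo1e (-0.21) were lower in KO as deposited, and Myo1e was at 0.01 with the TMM factor. Myo1f and Myo1g, of blood cells, and Myo1h were under 1 FPKM in both libraries. In the ezrin, radixin and moesin (ERM) family Ezr held 97.7% and 98.3% of the total. Moesin (Msn) was at 6.59 and 3.34 FPKM and radixin (Rdx) at 1.63 and 1.29 FPKM. All 3 thus had log2 ratios below 0 as deposited, as did 69.6% of all genes.

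The 4 intermicrovillar adhesion genes were all higher in KO, by unequal amounts, where 30.3% of all genes had a log2 ratio above 0 as deposited. The protocadherin Cdhr2 (Entrez gene 268663) was at 228 FPKM in the WT culture and 297 FPKM in the KO culture, a log2 ratio of 0.38. Its partner Cdhr5 (Entrez gene 72040), a mucin-like protocadherin, was at 288 and 326 FPKM, a log2 ratio of 0.18. CDHR2 and CDHR5 pair with each other across adjacent microvilli, and the ratio of Cdhr5 to Cdhr2 levels was 1.26 in WT and 1.10 in KO. Ush1c (Entrez gene 72088), which encodes the PDZ-domain scaffold harmonin, was at 55.4 and 68.2 FPKM, a log2 ratio of 0.30. Anks4b (Entrez gene 72074), which encodes an ankyrin-repeat scaffold that binds harmonin and MYO7B, was at 30.7 and 57.1 FPKM, a log2 ratio of 0.88. Anks4b was thus the furthest apart between libraries of this group. The 2 scaffolds stood at 1.81 Ush1c per Anks4b in WT and 1.19 in KO.

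The rest of this complex was also higher in KO. The motor Myo7b was at 63.7 FPKM in the WT culture and 87.0 FPKM in the KO culture (log2 ratio 0.44), and Calml4, a calmodulin-like light chain of that motor, at 98.5 and 141 FPKM (0.51). All 6 genes of the complex had log2 ratios above 0, where 30.3% of all genes did. None reached 2-fold as deposited, where 2.44% of all genes were at least 2-fold higher. With the TMM factor 1 of the 6, Anks4b (1.10), did, where 3.62% of all genes were. Cdhr5 held the largest share of their summed level, 37.7% in WT and 33.4% in KO. Anks4b held the smallest, 4.01% and 5.85%.

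Scin (Entrez gene 20259) stood apart from the other 9. It encodes scinderin, also called adseverin, a calcium-dependent protein of the gelsolin family that severs and caps actin filaments. It was at 5.0 FPKM in the WT culture and 46.3 FPKM in the KO culture, 9.27-fold higher, a log2 ratio of 2.98. Only 4 of the 12079 genes measured had a higher log2 ratio. Its WT level stands for about 278 reads and its KO level for about 2661, at the estimated depth and a transcript of median length. That depth, 19900000 reads in WT and 20600000 in KO, was inferred from the values. It is well under the average of 59000000 reads in the labels, but the search did not extend to depths that high. Which reads the FPKM total counts is not known, so these read numbers are approximate. Its rank by level was 8682 of 18944 in WT and 1822 in KO. With a pseudocount of 5 the log2 ratio of Scin was 2.36, and with 0.1 it was 3.19. The enterocyte marker Lct (lactase), at 0.53 and 11.0 FPKM, had log2 ratios of 2.98 with a pseudocount of 1, 1.54 with 5 and 4.14 with 0.1, so its place relative to Scin depended on the pseudocount.

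Vil1 and Scin belong to 1 family of 8 genes built from gelsolin repeats, and Scin was the 1 member of it past 2-fold. Villin held 63.0% of the family total in WT and 68.5% in KO, and Scin 0.741% and 5.02%. There were 84.9 Vil1 transcripts per Scin transcript in WT and 13.6 in KO, on the FPKM scale. Gelsolin itself (Gsn) was level at 139.3 and 139.1 FPKM, and its share was 20.7% and 15.1%. The capping protein gene Capg was at 44.8 and 55.8 FPKM, the nuclear receptor coactivator Flii at 40.7 and 35.5 FPKM and supervillin (Svil) at 7.87 and 7.28 FPKM. Villin-like (Vill, 4.28 and 2.16 FPKM) and advillin (Avil, 7.86 and 4.74 FPKM), a tuft cell gene, had log2 ratios of -0.74 and -0.63. Avil was also on the tuft cell marker list.

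**Figure D3:**
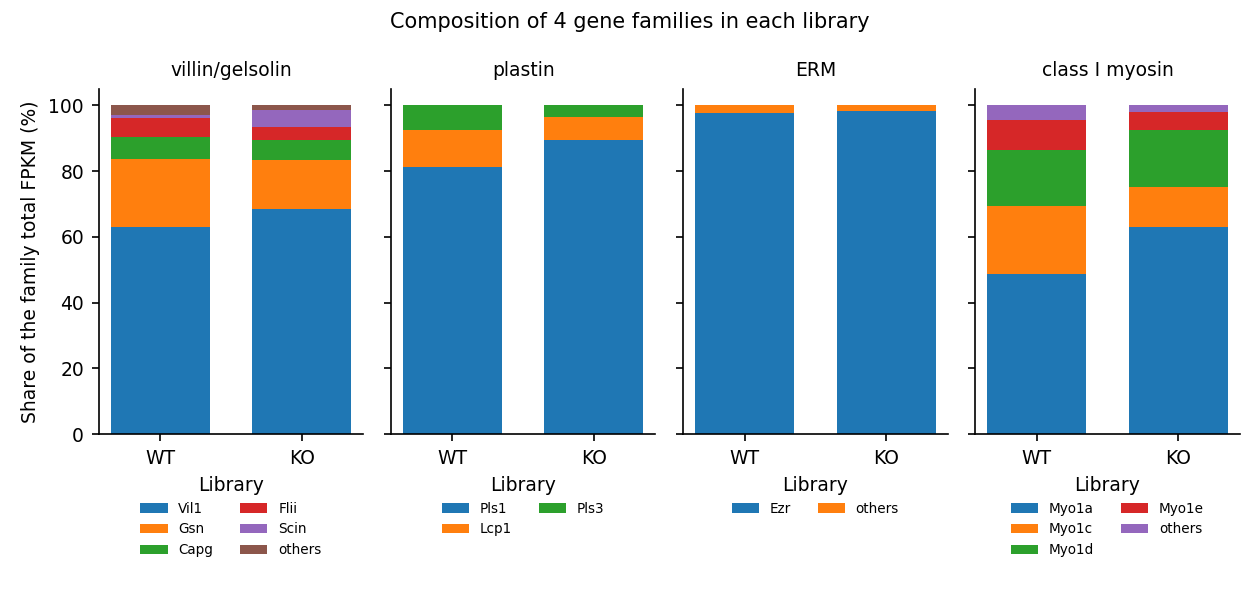
Share of each gene in the summed FPKM of its family, in percent, in the WT and KO libraries, for the villin/gelsolin, plastin, ERM and class I myosin families. Genes under 5% in both libraries are summed as others. Scin grows from 0.741% to 5.02% of its family, Pls1 from 81.2% to 89.6% and Myo1a from 48.6% to 63.0%, while Ezr makes up 97.7% and 98.3%.

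A list of 22 other microvillus genes was set beside the 10. Of these 1 was at least 2-fold higher in KO, where 2.44% of all genes were, and none was lower, against 2.18%. The log2 ratio was above 0 for 11 of the 22, where 30.3% of all genes lay above 0. The median was 0.02, against -0.18 over all genes. The gene past 2-fold was Tmigd1, an adhesion protein of the brush border, at 7.22 and 32.6 FPKM (2.03). Next came Slc9a3r1, the PDZ scaffold that binds ezrin, at 192 and 384 FPKM (0.99), so that there were 1.83 Ezr transcripts per Slc9a3r1 transcript in WT and 0.685 in KO. The lowest were Stk10 (5.30 and 2.74 FPKM, -0.75), a kinase that phosphorylates ezrin, and Vill. The actin nucleator Cobl was at 11.1 and 21.6 FPKM (0.91) and Baiap2l1 at 65.7 and 39.0 FPKM (-0.74). Both were chosen after their values were seen. At a threshold of 1.5-fold, as deposited, 3 of the 22 were higher in KO and 3 lower, against 5.7% and 11.4% of all genes. With the TMM factor 3 of 22 were at least 2-fold higher, namely Tmigd1, Slc9a3r1 and Cobl, where 3.62% of all genes were. None was lower, against 1.42%.

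Genes of the structures below the microvilli lay on both sides of 0. Over all genes as deposited the median was -0.18, with 2.44% at least 2-fold higher and 2.18% lower. Of 13 measured genes of the terminal web, the actomyosin and spectrin mat in which the core bundles are rooted, none was past 2-fold. Their median was -0.07, and 8 of the 13 lay above the median of all genes. The spectrin chain Sptbn1 (0.51) and beta-actin (Actb, 0.36) were highest, and the alpha-actinin Actn1 (-0.87) and the non-muscle myosin Myh10 (-0.61) lowest. Myh10 was near the minimum level, at 1.78 and 0.82 FPKM. Its log2 ratio was -1.03 with a pseudocount of 0.1 and -0.22 with 5. Of 7 genes of apical membrane traffic, including the Myo5b motor mutated in microvillus inclusion disease, none was past 2-fold. Their median was 0.04, and 5 of the 7 lay above the median of all genes. Rab8a (0.32) and Myo5b (0.27) were highest, and the sorting protein Vps33b (-0.39) and the syntaxin-binding Stxbp2 (-0.18) lowest. Of 8 transcription factors, none was past 2-fold as deposited, the median was 0.39, and 7 lay above the median of all genes. With the TMM factor 1 of the 8, Hnf4g, was at least 2-fold higher, where 3.62% of all genes were. Hnf4g, an activator of brush border genes, was at 37.6 and 66.0 FPKM (0.80, and 1.02 with the TMM factor), and the GATA factor Gata6 was at 0.55. Cdx1 was lowest (-0.23). Stat6 itself was at 41.3 and 44.2 FPKM. Edits by guide RNA can leave transcript abundance as it was, so the knockout cannot be checked from this value.

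**Figure D4:**
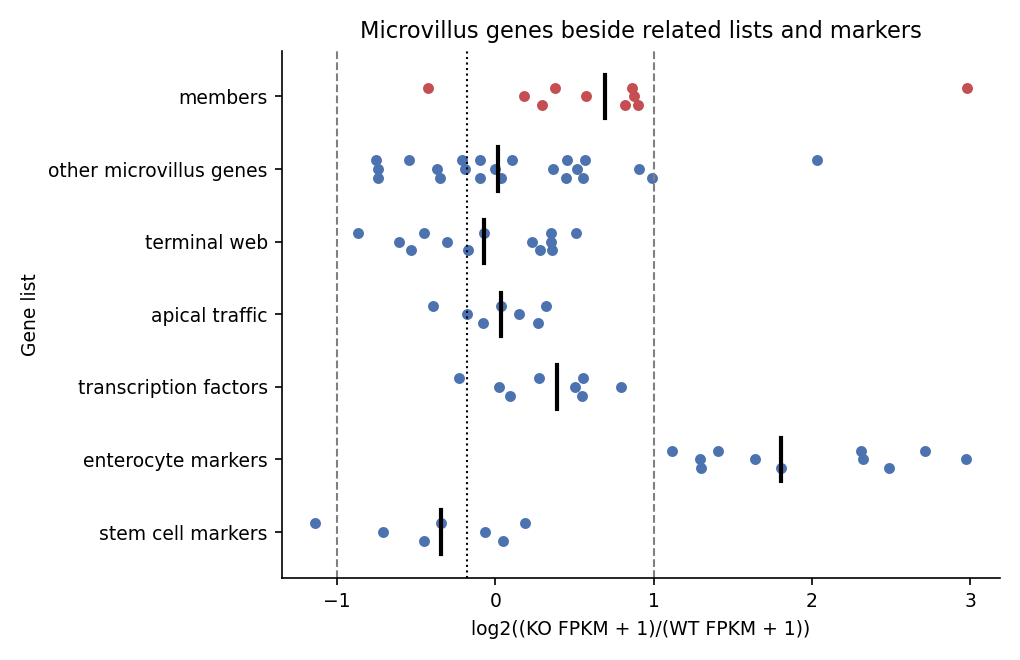
Log2 ratios of the 10 microvillus genes (red), 4 related lists and 2 marker lists (blue), with 1 point per measured gene. Black bars are list medians, dashed lines mark 2-fold and the dotted line is the median of all genes. The enterocyte markers all lie right of the 2-fold line, and 9 of the 10 microvillus genes lie left of it.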

How the data were processed

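The series holds 1 WT and 1 Stat6 KO library of total RNA, sequenced on a BGISEQ-500 as 50-base single-end reads. The labels' protocols give an average of 59000000 reads. The authors deposited FPKM per gene, rounded to 2 decimals, per the file headers. HISAT, Bowtie2, RSEM and build mm9 are named in the submitters' processing notes, and the sources used here do not give their versions, the annotation or strand use. FPKM depends on the library total, so abundant genes that differ shift all others. Of the 10 members, Vil1 overlaps another deposited gene, Usp37, by 51 bases (GRCm38.p6), and Usp37 was at 8.71 and 9.75 FPKM.

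Tables were joined on Entrez gene number and symbol. Depth was estimated from the whole-number steps of low values in short genes, at 19900000 reads in WT and 20600000 in KO. Both depths were searched to bring values near whole reads (within 0.1 read for 89.2% and 89.7% of them), so they are approximate. They lie well under the average in the labels, which was outside the range searched. No interval was computed. Log2 ratios used a pseudocount of 1, which understates low genes, and genes reaching 1 FPKM in either library. The TMM factor was an unweighted mean of log ratios after trims of 30% and 5%.

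Genes named were all 10 members, their families, the 2 highest and 2 lowest of each other list, any past 2-fold, and up to 3 per marker list. A few genes this rule selects are not reported here. Members, lists and tests were chosen with earlier results of these data known. Alternatives were other pseudocounts, scalings, minimum levels and fold thresholds. Python 3.11.15, NumPy 2.4.6, pandas 2.3.3 and Matplotlib 3.10.9 were used, and the calculation was tested on simulated data.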

Additional observations from a re-analysis of the deposited data

How the results depend on the processing

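With 1 library per genotype, no result has a replicate check, and a difference between these cultures cannot be told apart from one between genotypes. No paired analysis was possible because each genotype has 1 library. Every direction of the 10 members held in all 8 alternatives of pseudocount, scaling and minimum level. Only the scalings could have reversed a direction. A minimum level leaves each ratio as it was, and a pseudocount cannot change its sign. Of 80 values, 73 stayed on the same side of 2-fold, a count that includes the unchanged values under the minimum levels. The other 7 passed it, all under the TMM factor or the median set to 0. Members at least 2-fold higher numbered 1 as deposited, 5 with the TMM factor, 4 with the median set to 0, and 5 at a 1.5-fold threshold. The log2 ratio of Scin ran from 2.36 to 3.21 over these alternatives.

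Over all genes, 295 were higher and 263 lower as deposited. With a pseudocount of 0.1, 604 were lower (38.2% of calls higher), and with 5, 144 were higher and 63 lower (69.6% higher). The TMM factor gave 171 lower and the median set to 0 gave 160 (71.9% higher in both). Minimum levels of 5 FPKM, or of 1 FPKM in both libraries, gave 150 and 165 lower. A 1.5-fold threshold gave 689 higher and 1381 lower, and 4-fold 51 and 27.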

Other observations

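The hair cells of the inner ear use relatives of the intermicrovillar adhesion genes to join their stereocilia, and these were nearly absent from both cultures. Cdh23 was listed at 0 FPKM in the WT culture and at 0.01 FPKM in the KO culture, Pcdh15 was at 0.03 and 0.02 FPKM, and Ush1g at 0.08 and 0.05 FPKM. The exception was the motor Myo7a, at 10.6 and 14.4 FPKM. Its intestinal relative Myo7b was at 63.7 and 87.0 FPKM.

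The actin isoforms that make up the microvillus core differed in direction between libraries. Actg1, chosen after its value was seen, was at 2976 FPKM in the WT culture and 2404 FPKM in the KO culture, and Actb at 1209 and 1550 FPKM. The ratio of Actg1 to Actb was 2.46 in WT and 1.55 in KO, which no scaling of the libraries moves. Per 1000 FPKM of the 2 actins together, Vil1 stood at 101 in WT and 160 in KO, Myo1a at 33.4 and 66.3, and Scin at 1.20 and 11.7. Ezr stood at 84.3 and 66.5.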
